A study of Mus musculus with 22 samples.

Results

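Pou5f1, Sox2 and Nanog encode the transcription factors OCT4, SOX2 and NANOG, the core of the gene network that keeps embryonic stem cells (ESCs) pluripotent. The 3 genes were taken by their symbols from a table of raw counts with 44749 entries, 43672 of them genes, in 22 RNA-seq libraries of mouse ESCs, and were compared by group, by library and as ratios to one another. All 3 were counted in 22 of 22 libraries, with 4884 to 19085 counts for Pou5f1, 1417 to 5125 for Sox2 and 2866 to 13968 for Nanog. Counting error was at most 2.66% of any value (Sox2 in its lowest library). On mm10 (GENCODE vM21), Pou5f1 lies on chromosome 17 at 35506018 to 35510772, Sox2 on chromosome 3 at 34650405 to 34652461 and Nanog on chromosome 6 at 122707489 to 122714633, each on the plus strand.

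OCT4 is a POU-domain factor and SOX2 an HMG-box factor. They bind DNA side by side at a joint site, where an octamer motif stands next to a SOX motif, in the control regions of many ESC genes, their own genes and Nanog among them. NANOG is a homeodomain factor that stabilises self-renewal. In cultures with serum its level is known to vary from cell to cell, and cells can lose it for a time while they keep OCT4. Ythdc1 is the nuclear reader of N6-methyladenosine (m6A), a mark on RNA that the enzyme Mettl3 writes, and Dux is a transcription factor that activates genes of the two-cell stage.

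The Ythdc1 set held Ythdc1 conditional knockout (cKO) ESCs of 2 lines, with 4 libraries treated with 4OHT, a ligand used to switch on inducible Cre recombinases, and 4 with DMSO as the control. Its columns carry no line, so the libraries are numbered 1 to 4 as in the columns and were compared as 4 against 4. The Mettl3 set held 2 Mettl3 KO and 2 Mettl3 WT libraries. The Dux set held 10 libraries of Ythdc1 cKO cells: Dux-Het with 4OHT and with DMSO (2 each), Dux-KO with 4OHT and with DMSO (2 each), and cells with no Dux label (1 each). Dux-Het stands for Dux+/- and Dux-KO for Dux-/-. In the Dux set the genotype and treatment fields run 1 sample out of step with the titles. Groups follow the titles, which the column names match. All cells were male ESCs in serum with LIF and without feeders. No library holds 4OHT-treated cells without the Ythdc1 cKO, so effects of 4OHT itself and of Ythdc1 deletion cannot be told apart. Of the recombinase's driver, the number of clones and the duration of treatment the sources used here say nothing. No label calls the replicates separate cultures, and the p-values therefore cover the spread between these libraries alone, which may be technical.

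Library totals ran from 24.96 to 54.14 M counts. Ythdc1 was at 71.9 to 82.2 CPM (counts per M, scaled for depth) with DMSO and 49.5 to 63.4 CPM with 4OHT in the Ythdc1 set, and Mettl3 at 28.7 to 29.9 CPM in WT and 14.5 to 28.5 CPM in the libraries labelled Mettl3 KO. In the Dux set Ythdc1 did not pass (63.9 CPM with DMSO, 55.1 CPM with 4OHT, log2 fold change -0.21, edgeR adjusted p = 0.203), and in the libraries labelled Mettl3 KO it was higher than in WT (0.82, edgeR adjusted p = 0.000236), while Mettl3 itself did not pass there (-0.44, adjusted p = 0.207). The counts are over whole genes, and the sources used here do not say which part was deleted. Duxf3, the gene of Dux, was at 0.0199 to 0.0901 CPM in the Dux-KO libraries and 0.924 to 1.55 CPM in those of Dux-Het with 4OHT, as the titles have it. With DMSO it does not separate the genotypes (0.0673 to 0.0818 CPM in Dux-KO, 0.0692 to 0.141 CPM in Dux-Het). All 8 ESC markers checked were above 0 in every group, with sums of 944 to 1987 CPM. Replicate 1 of the Ythdc1 set's DMSO group stood apart from the other 3, and the Dux-KO DMSO replicates differed most of all replicate pairs (chi-square per degree of freedom 99.07, against 3.741 to 46.41 in the others), so results that change without them are given both ways.

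The 250 bases before a RefSeq transcription start of each gene (GRCm38.p6, plus strand) are shown because OCT4 and SOX2 are known to act on these genes themselves. Nanog and Pou5f1 have 2 such windows each, and the other is not shown. RefSeq and GENCODE starts can differ: the Sox2 window ends at 34649994, before the GENCODE start at 34650405. Motifs were searched on both strands: the octamer core ATGCAAA, the SOX core ACAATG, their composite TTTGCATNACAATG (which contains both cores), the nuclear receptor motif AGGTCA and the GC box GGGCGG. Capitals mark the composite in Nanog, the octamer core in Sox2, and a GC box and a nuclear receptor motif in Pou5f1.
Nanog chr6:122707239-122707488: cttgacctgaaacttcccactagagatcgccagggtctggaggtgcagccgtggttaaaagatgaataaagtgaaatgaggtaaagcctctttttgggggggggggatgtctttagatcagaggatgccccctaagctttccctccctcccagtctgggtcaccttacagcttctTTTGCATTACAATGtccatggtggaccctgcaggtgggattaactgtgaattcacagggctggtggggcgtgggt
Sox2 chr3:34649745-34649994: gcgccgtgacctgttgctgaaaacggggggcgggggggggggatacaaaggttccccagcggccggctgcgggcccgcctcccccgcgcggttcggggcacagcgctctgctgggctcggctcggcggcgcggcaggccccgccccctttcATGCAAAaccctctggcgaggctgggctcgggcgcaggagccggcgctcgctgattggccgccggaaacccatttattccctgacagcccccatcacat
Pou5f1 chr17:35505782-35506031: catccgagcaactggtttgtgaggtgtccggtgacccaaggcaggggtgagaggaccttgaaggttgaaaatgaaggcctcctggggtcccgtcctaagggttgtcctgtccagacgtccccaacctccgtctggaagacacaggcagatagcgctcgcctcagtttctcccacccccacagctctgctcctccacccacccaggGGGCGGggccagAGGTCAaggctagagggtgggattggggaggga

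The composite lay 75 to 62 bases before the Nanog start and was found in 2 of 32817 promoter windows of this length (0.00609%). A gene can hold several of these windows, and Nanog itself has 2, so both matches may be its own. Apart from its free base N, the composite searched has the same letters as the Nanog site. The share is therefore no measure of how rare such sites are. The octamer core, held by 4.13% of the windows, was found in Nanog (within the composite) and in Sox2, 99 to 93 bases before the start. The Pou5f1 window held neither core. Its nuclear receptor motif lay 33 to 28 bases and its GC box 45 to 40 bases before the start, and these motifs occur in 14% and 32.7% of all windows. The Sox2 and Nanog windows also hold a nuclear receptor motif each, and the Sox2 window holds 2 GC boxes. A match is a description of the letters only.

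The bases GGACT spell in DNA letters a common core of m6A sites. The longest coding transcript held 1 such core in Pou5f1, 3 in Sox2 and 4 in Nanog, or 0.734, 1.46 and 1.81 per kb, with a median of 1.01 per kb over 21877 genes. In Pou5f1 the core was in the coding part, in Sox2 all 3 were in the 3′ UTR, and in Nanog 2 were coding and 2 in the 3′ UTR. The core nearest the end of the coding part, in capitals, is shown for each from the GENCODE vM21 transcripts, because m6A is known to gather near that point. With minus for bases before that end, the cores shown lie at -833 in Pou5f1, 6 in Sox2 and -159 in Nanog. The Pou5f1 core is thus far from that end, in a coding part of 1059 bases.
Pou5f1, coding: ggacctcaggttGGACTgggcctagtccc
Sox2, 3′ UTR: catgtgagggctGGACTgcgaactggaga
Nanog, coding: taacttcggggaGGACTttctgcagcctt
Methylation itself was not measured in these libraries.

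Levels differed between the sets before any treatment was compared. Per kilobase of exon, the 4 DMSO libraries of the Ythdc1 set held 125 ± 6.45 CPM per kb of Nanog (SD, n = 4), 90.3 ± 10.7 of Pou5f1 and 35.7 ± 2.76 of Sox2. The Dux-Het DMSO libraries held 184 ± 16.3 CPM per kb of Pou5f1 (SD, n = 2), 78.3 ± 4.8 of Nanog and 47.7 ± 6.05 of Sox2. Nanog thus ranked above Pou5f1 in 4 of 4 DMSO libraries of the Ythdc1 set and below it in all 5 of the Dux set. In Mettl3 WT the 2 genes were close, with 85.7 ± 2.61 CPM per kb of Nanog and 87.5 ± 2.39 of Pou5f1 (SD, n = 2). Nanog ranked above Pou5f1 in 1 of these libraries and below it in the other. Sox2 was the lowest of the 3 per kilobase in 20 of the 22 libraries. In replicate 1 of the Ythdc1 set's 4OHT group it stood at 36.8 CPM per kb against 36.5 for Nanog, and in replicate 2 of Dux-KO 4OHT both were at 44.9 CPM per kb. The set, its cell clones and its sequencing cannot be told apart here.

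In CPM, the order of the group means for Nanog ran from the Ythdc1 set with DMSO (281), Mettl3 KO (262), the no-Dux-label DMSO library (244) and Mettl3 WT (192) through Dux-Het DMSO (176), Dux-KO DMSO (167) and the no-Dux-label 4OHT library (158) to Dux-Het 4OHT (111), the Ythdc1 set with 4OHT (100) and Dux-KO 4OHT (98.2). The ranges of neighbours overlapped between the first and second, between the fifth, sixth and seventh, and among the last 3. For Pou5f1 the 6 groups of the Dux set came first (259 to 414 CPM) and the 4 other groups after them (175 to 214 CPM). Apart from that step and the step between the no-Dux-label DMSO and 4OHT libraries (366 to 288 CPM), ranges of neighbouring groups overlapped. Over the whole Dux set DMSO and 4OHT libraries overlapped, with a Dux-KO DMSO library at 295 CPM and a Dux-Het 4OHT library at 308 CPM. Sox2 had the narrowest order, from 112 CPM in the no-Dux-label DMSO library to 56.2 CPM in Mettl3 KO, with the 6 Dux groups (88.3 to 112 CPM) again above the others (56.2 to 73.6 CPM). Neighbouring ranges were apart at that step and at both ends of the order, and overlapped elsewhere.

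**Figure D1:**
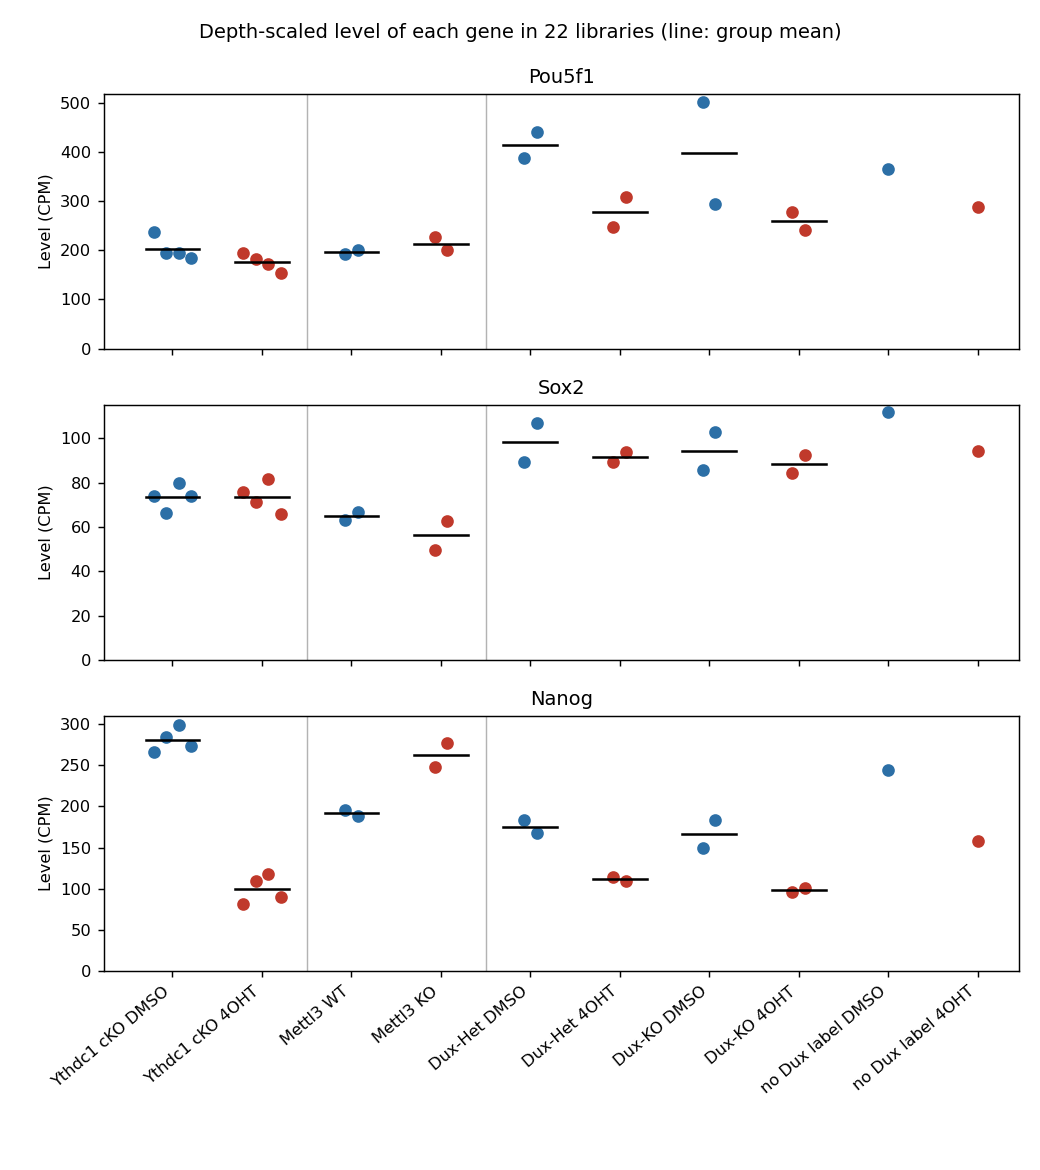
Level of Pou5f1, Sox2 and Nanog in CPM (vertical axes, from 0) in each of 22 libraries, by group. Blue points are DMSO or WT libraries, red points 4OHT or KO libraries, and lines are means of groups with at least 2 libraries. Nanog is at 266 to 299 CPM in the DMSO libraries and 81.8 to 118 CPM in the 4OHT libraries of the Ythdc1 set, while Pou5f1 and Sox2 overlap there.

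In the Ythdc1 set 4OHT was compared with DMSO in cells whose m6A reader gene can be deleted. Nanog stood at 266, 284, 299 and 273 CPM in the DMSO libraries 1 to 4 and at 81.8, 110, 118 and 89.7 CPM in the 4OHT libraries. Every 4OHT library was below every DMSO library. Nanog fell 2.73-fold (log2 fold change -1.45, SE 0.0946, 95% interval -1.65 to -1.25, edgeR quasi-likelihood adjusted p = 7.76e-09), from 281 ± 14.5 to 100 ± 17 CPM (SD, n = 4 each). Leaving out any 1 library gave -1.54 to -1.37. In bulk RNA, fewer cells with Nanog and less Nanog RNA per cell cannot be told apart.

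Pou5f1 stood at 238, 194, 195 and 185 CPM with DMSO and at 194, 182, 173 and 153 CPM with 4OHT. The groups overlapped, and replicate 1 was the highest of each. The difference was 1.13-fold (log2 fold change -0.17, SE 0.0797, interval -0.34 to -0.00, edgeR adjusted p = 0.0936). It passed when same-numbered libraries were blocked (replicate block, -0.17, edgeR adjusted p = 0.00854) and without replicate 1 of 4OHT (-0.22, adjusted p = 0.0448). Without replicate 1 of DMSO, the library that stood apart, it was -0.09 (adjusted p = 0.292), so whether it passes rests on these choices, while its size is small under each. Sox2 stood at 73.8, 66.1, 80 and 73.8 CPM with DMSO and at 75.6, 71.3, 81.8 and 65.9 CPM with 4OHT. Its difference was 0.04 in log2 (SE 0.0771, edgeR adjusted p = 0.679), and the 95% interval of -0.12 to 0.21 bounds it to less than the Nanog change. Of the trio 1 gene passed, in a comparison in which 45.1% of 24385 entries did, and ranges were apart for 1 of 3, as for 41.9% of entries. Sox2 changed sign without replicate 2 of DMSO or replicate 3 of 4OHT (-0.01 each).

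The Dux set repeats the 4OHT treatment in other Ythdc1 cKO cells. In Dux-Het cells Nanog was at 183 and 168 CPM with DMSO and at 114 and 109 CPM with 4OHT. It fell 1.57-fold (log2 fold change -0.65, SE 0.145, edgeR adjusted p = 0.0185). In Dux-KO cells, which lack the two-cell factor, Nanog was at 149 and 184 CPM with DMSO and at 95.7 and 101 CPM with 4OHT, and it fell 1.7-fold (-0.77, SE 0.145, edgeR adjusted p = 0.0094). In both genotypes each 4OHT library was below each DMSO library. In the pair with no Dux label, with 1 library each and no test, Nanog was at 244 CPM with DMSO (95% exact Poisson interval 239 to 248, counting error only) and 158 CPM with 4OHT (154 to 161). Pou5f1 there was at 366 CPM (360 to 372) and 288 CPM (284 to 294), and Sox2 at 112 CPM (109 to 115) and 94.3 CPM (91.5 to 97.2), so each of the trio was lower in that 4OHT library.

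Pou5f1 was at 388 and 440 CPM with DMSO and 247 and 308 CPM with 4OHT in Dux-Het cells (log2 fold change -0.57, SE 0.224, edgeR adjusted p = 0.137). In Dux-KO cells it was at 501 and 295 CPM with DMSO and 277 and 241 CPM with 4OHT (-0.62, SE 0.224, edgeR adjusted p = 0.104). The groups did not overlap in either, but the DMSO libraries of Dux-KO were far apart: without replicate 1 the difference was -0.23 (adjusted p = 0.565) and without replicate 2 it was -0.99 (adjusted p = 0.0174). Sox2 was at 89.4 and 107 CPM with DMSO and 89.5 and 93.7 CPM with 4OHT in Dux-Het cells (-0.10, edgeR adjusted p = 0.733), and at 85.5 and 103 CPM with DMSO and 84.3 and 92.4 CPM with 4OHT in Dux-KO cells (-0.09, edgeR adjusted p = 0.744). Pou5f1 passed in both genotypes with a replicate block (-0.58 each, edgeR adjusted p = 0.003 in Dux-Het and 0.00329 in Dux-KO) and in 1 fit of 22 libraries (-0.58 and -0.62, adjusted p = 0.0236 and 0.0147). Without these changes 1 of the trio passed in each genotype, where 9.34% (Dux-Het) and 9.86% (Dux-KO) of 29322 entries passed. Of all entries 4.34% fell and 4.99% rose in Dux-Het cells, and 4.36% fell and 5.5% rose in Dux-KO cells. Ranges did not overlap for 2 of the trio in each, which was the case for 52.8% and 59.8% of entries.

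These calls rest on few libraries. The Nanog call in Dux-Het cells was lost without Dux-Het DMSO replicate 1 (-0.59, edgeR adjusted p = 0.0796), Dux-Het 4OHT replicate 1 (-0.68, adjusted p = 0.0686) or 2 (-0.65, adjusted p = 0.0958), or Dux-KO 4OHT replicate 2 (-0.65, adjusted p = 0.0506). In Dux-KO cells it was lost without 4OHT replicate 1 (-0.76, adjusted p = 0.112) or 2 (-0.80, adjusted p = 0.1). Pou5f1 passed in Dux-Het cells without Dux-KO DMSO replicate 1 (-0.60, adjusted p = 0.0397) or 2 (-0.58, adjusted p = 0.0443). Sox2 turned to 0.04 in Dux-Het cells without DMSO replicate 2 and to 0.01 in Dux-KO cells without DMSO replicate 2. Where 1 library was left in a group, it was assumed to vary like the others.

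With the 10 libraries pooled over the 3 Dux genotypes, 2 of the trio fell. Nanog fell 1.62-fold (log2 fold change -0.69, SE 0.0776, edgeR adjusted p = 2.32e-05) and Pou5f1 1.46-fold (-0.55, SE 0.128, edgeR adjusted p = 0.00476), where 36.4% of 29322 entries passed, 16.2% lower and 20.2% higher. Without any 1 library the values were -0.76 to -0.66 for Nanog and -0.66 to -0.43 for Pou5f1. Sox2 did not pass (-0.13, interval -0.30 to 0.05, edgeR adjusted p = 0.252). Its level was 99.3 CPM with DMSO and 90.8 CPM with 4OHT.

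Dux-KO was compared with Dux-Het to ask whether the trio depends on the two-cell factor. Under DMSO the log2 differences were -0.05 (interval -0.54 to 0.44) for Pou5f1, -0.05 (-0.39 to 0.28) for Sox2 and -0.07 (-0.38 to 0.25) for Nanog. Under 4OHT they were -0.10 (-0.59 to 0.39), -0.05 (-0.38 to 0.28) and -0.18 (-0.50 to 0.13). The 4OHT effect in Dux-KO minus that in Dux-Het was -0.05 (-0.74 to 0.65), 0.00 (-0.47 to 0.47) and -0.11 (-0.56 to 0.33). No member passed in these 3 comparisons (edgeR adjusted p = 1 each), in which 0.0341%, 0.276% and 0% of 29322 entries did (under 4OHT 0.273% lower and 0.00341% higher). Nanog ranges were apart under 4OHT, as for 32.2% of entries, and those of Pou5f1 and Sox2 overlapped. For the difference of effects, 481 of the 29322 entries had an unadjusted p under 0.05. This is less than the share of 0.05 that would come with no difference at all. The lack of calls therefore does not show that the genotypes respond alike. Several of these small differences changed sign when a library was left out. For Pou5f1 the difference between genotypes under DMSO was -0.49 without Dux-KO DMSO replicate 1 and 0.30 without replicate 2, and the difference of effects 0.38 and -0.41. The markers of two-cell-like cells summed to 140 to 297 CPM in the 4OHT libraries of the Ythdc1 set and to 92.3 to 108 CPM in those of Dux-Het. In those of Dux-KO they summed to 1.5 to 1.85 CPM, with 9 of 13 markers at 0, while Nanog there was at 95.7 and 101 CPM.

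Over all 18 Ythdc1 cKO libraries, Nanog fell 2.07-fold with 4OHT (log2 fold change -1.05, SE 0.103, edgeR adjusted p = 2.68e-08) and Pou5f1 1.32-fold (-0.40, SE 0.0933, edgeR adjusted p = 0.00125). Sox2 was at -0.07 (interval -0.20 to 0.06, edgeR adjusted p = 0.39). In this comparison 46% of 31020 entries passed, 21.2% lower and 24.7% higher. The Nanog change differed between the sets: the effect in the Ythdc1 set minus that in the Dux set was -0.74 (SE 0.13, edgeR adjusted p = 0.00462), a test that 2.1% of 31020 entries passed, with 0.832% of all entries below 0. For Pou5f1 the same difference was 0.40 (interval 0.05 to 0.74, edgeR adjusted p = 0.233, or 0.38 with adjusted p = 0.0251 with a replicate block and 0.19 with adjusted p = 0.552 without Dux-KO DMSO replicate 1), and for Sox2 0.19 (-0.05 to 0.43, adjusted p = 0.445). The sets differ in their cells, and Ythdc1 itself passed in the Ythdc1 set (-0.41, edgeR adjusted p = 0.00064) and not in the Dux set. These cannot be told apart.

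**Figure D2:**
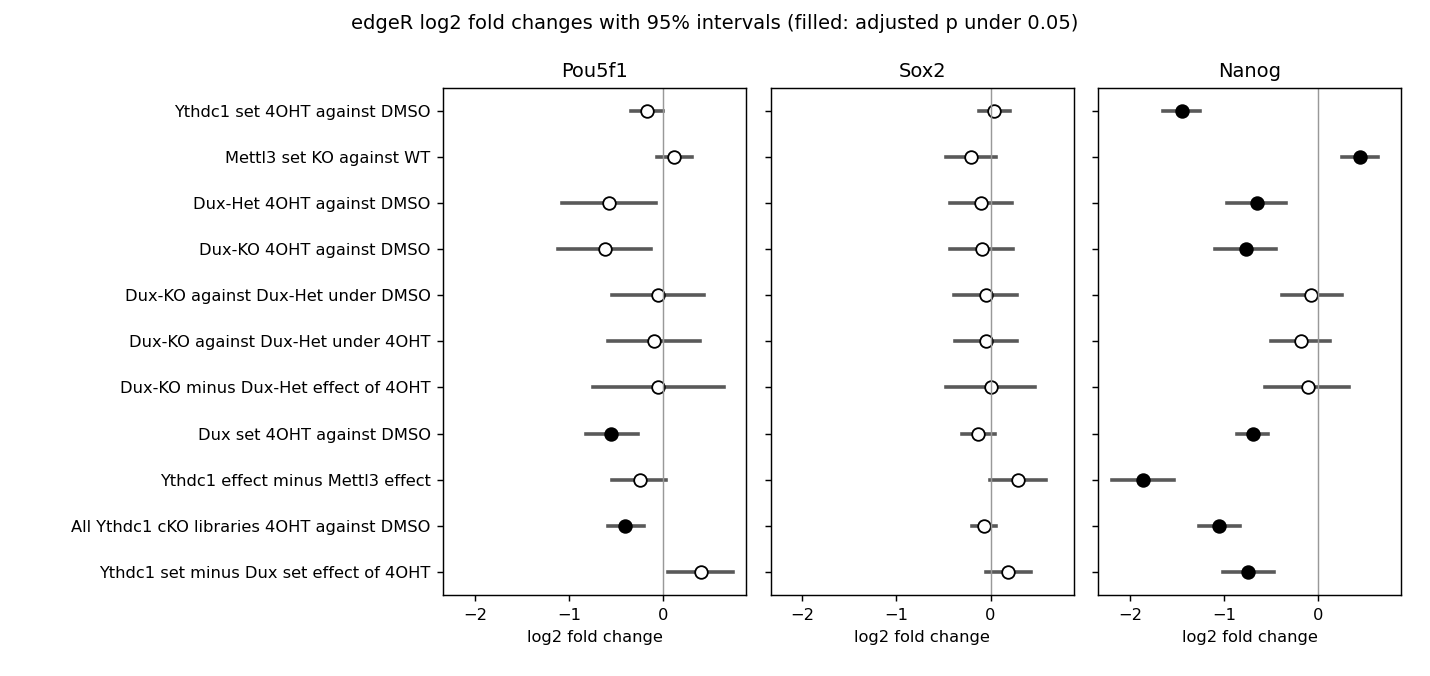
edgeR log2 fold changes (horizontal axes) of Pou5f1, Sox2 and Nanog in 11 comparisons, with 95% intervals as lines. Filled points have an adjusted p under 0.05. Nanog lies left of 0 in every 4OHT comparison and at 0.45 in the Mettl3 set, Pou5f1 is filled in the 2 comparisons that pool the Dux genotypes, and Sox2 is filled in none.

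The Mettl3 set sets the m6A writer beside the reader, with 2 libraries labelled KO against 2 labelled WT. Nanog was at 196 and 188 CPM in WT and at 248 and 277 CPM in KO. Both KO libraries were above both WT libraries. Nanog rose 1.37-fold (log2 fold change 0.45, SE 0.0829, interval 0.26 to 0.64, edgeR adjusted p = 0.00321). This was 1 of the trio, where 31.2% of 23977 entries passed and 16.4% rose. The call was lost without WT replicate 1 (0.48, adjusted p = 0.13) or WT replicate 2 (0.41, adjusted p = 0.132), when 351 and 1928 entries passed in place of 7492.

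Pou5f1 was at 193 and 201 CPM in WT and 226 and 201 CPM in KO (0.12, interval -0.07 to 0.31, edgeR adjusted p = 0.308). Sox2 was at 63.2 and 66.7 CPM in WT and 49.8 and 62.6 CPM in KO (-0.21, interval -0.47 to 0.06, edgeR adjusted p = 0.224). Without KO replicate 2 both passed, Pou5f1 at 0.19 (adjusted p = 0.00399) and Sox2 at -0.39 (adjusted p = 9.96e-05). KO replicate 2 was the library nearer to WT for both genes, and ranges of KO and WT did not overlap for the 3 members, as for 66.3% of entries. The Ythdc1 effect minus the Mettl3 effect was -1.86 for Nanog (SE 0.156, edgeR adjusted p = 8.62e-08), past the threshold with 25.3% of 28260 entries. It was -0.25 for Pou5f1 (interval -0.54 to 0.03, adjusted p = 0.2) and 0.29 for Sox2 (-0.01 to 0.59, adjusted p = 0.151, or 0.43 with adjusted p = 0.0475 without Mettl3 KO replicate 2).

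Ratios within a library do not depend on its depth. The Nanog to Pou5f1 count ratio was 1.12, 1.46, 1.54 and 1.48 with DMSO in the Ythdc1 set and 0.423, 0.608, 0.681 and 0.587 with 4OHT, so Nanog went from more counts than Pou5f1 in each library to fewer in each. The mean log2 ratio went from 0.47 to -0.82 (difference -1.29, two-sided exact permutation p = 0.0286, the smallest that 4 against 4 allows, adjusted p = 0.0571 over 6 tests). The Nanog to Sox2 ratio went from 3.61, 4.3, 3.74 and 3.69 to 1.08, 1.55, 1.44 and 1.36 (difference -1.51, exact permutation p = 0.0286, adjusted p = 0.0571). Sox2 to Pou5f1 was 0.31 to 0.41 with DMSO and 0.391 to 0.472 with 4OHT (difference 0.21, exact permutation p = 0.171, adjusted p = 0.206). Thus the ratios with Nanog separated the treatments in every library, and the ratio without Nanog overlapped between groups. Within the same-numbered pairs Sox2 to Pou5f1 was higher with 4OHT in 4 of 4 (0.31 and 0.391, 0.34 and 0.392, 0.41 and 0.472, 0.4 and 0.431), which the unpaired test does not use. That pairing was taken from the data, and the paired count was not tested.

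In the Dux set the Nanog to Pou5f1 ratio was 0.472 and 0.382 with DMSO and 0.46 and 0.355 with 4OHT in Dux-Het cells, 0.298 and 0.625 against 0.345 and 0.418 in Dux-KO cells, and 0.665 against 0.547 in the pair with no Dux label. Both genes were lower with 4OHT there, and their ratio overlapped (mean log2 difference -0.16, exact permutation p = 0.528, adjusted p = 0.528, permuted within each genotype). It turned to 0.02 without Dux-KO DMSO replicate 2. The Nanog to Sox2 ratio was 2.05 and 1.57 with DMSO and 1.27 and 1.17 with 4OHT in Dux-Het cells. It was 1.75 and 1.79 against 1.13 and 1.09 in Dux-KO cells, and 2.18 against 1.67 in the pair with no Dux label. Within each genotype every 4OHT library was below every DMSO library (mean log2 difference -0.57, exact permutation p = 0.0278, the smallest this design allows, adjusted p = 0.0571). Sox2 to Pou5f1 was at a log2 difference of 0.41 (exact permutation p = 0.0833, adjusted p = 0.125).

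In the Mettl3 set the Nanog to Sox2 ratio was 3.1 and 2.82 in WT and 4.97 and 4.42 in KO, and the Nanog to Pou5f1 ratio 1.02 and 0.938 in WT and 1.09 and 1.38 in KO. Sox2 to Pou5f1 was 0.328 to 0.332 in WT and 0.22 to 0.311 in KO. KO and WT did not overlap for any of the 3 ratios, but with 2 against 2 an exact permutation p cannot go below 0.333.

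**Figure D3:**
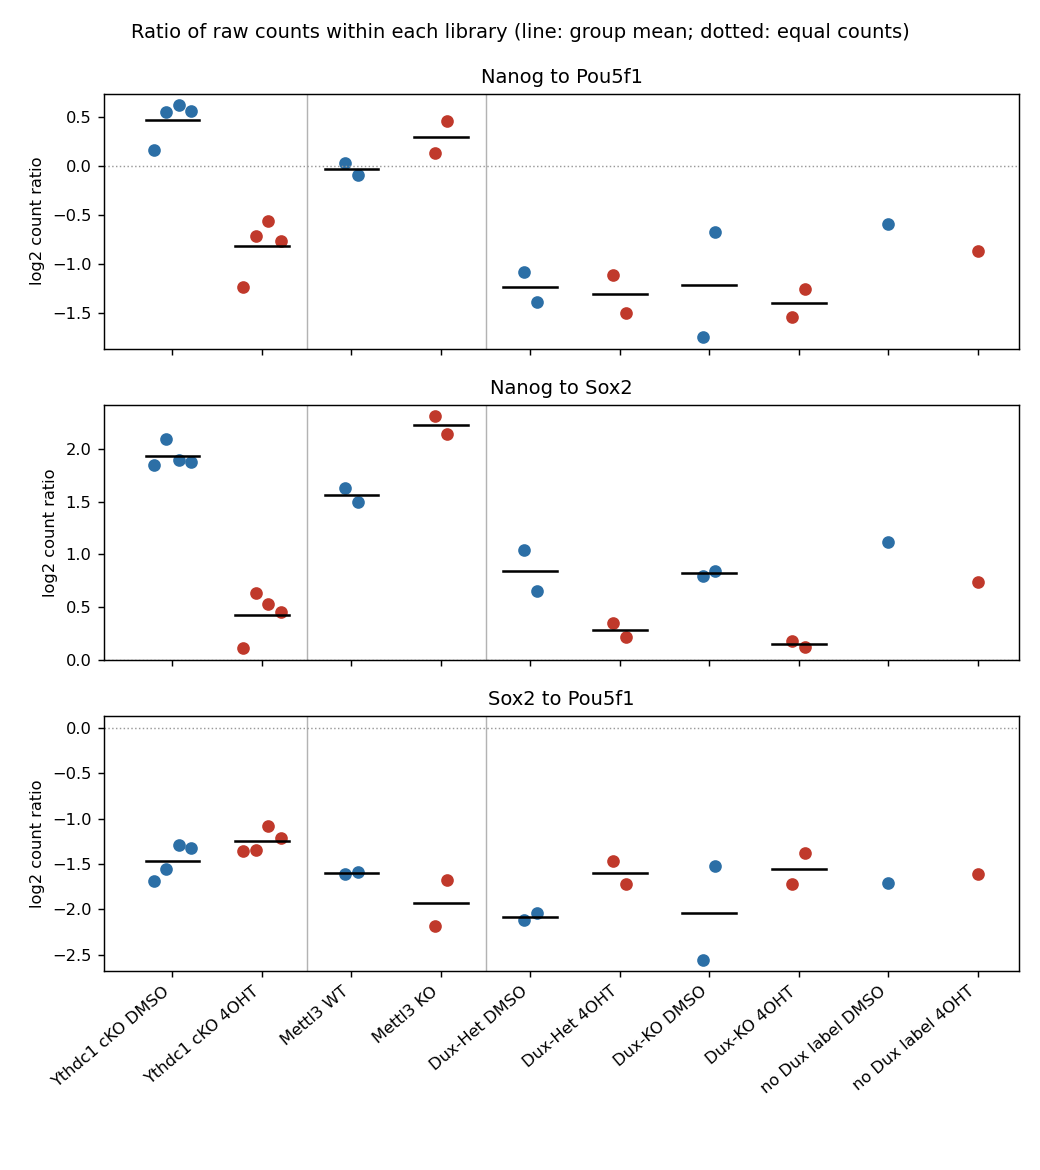
Ratio of raw counts on a log2 scale (vertical axes) for each pair of the trio in each of 22 libraries, by group, with group means as lines and a dotted line at equal counts. Nanog to Pou5f1 is above 0 in the 4 DMSO libraries and below 0 in the 4 4OHT libraries of the Ythdc1 set, and below 0 in all 10 libraries of the Dux set.

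Other transcripts at the loci were measured too. Gm19553 (chromosome 17, 35509077 to 35510551, minus strand) is an antisense gene within Pou5f1 and shares 317 exon bases with it. Its counts were 0.213 to 0.247 of those of Pou5f1 in the Ythdc1 set and 0.297 to 0.335 in the other sets. The library kit digests the second cDNA strand and so keeps strand, but the sources used here do not say whether the counting used it, so reads of the 2 genes may be mixed. Gm19553 did not pass in the Ythdc1 set (-0.08, edgeR adjusted p = 0.526) and fell in the Dux set (-0.51, edgeR adjusted p = 0.0044), as Pou5f1 did. With the counts of both genes added up, an alternative chosen after seeing the data, Pou5f1 kept its side of the threshold in 11 of 11 comparisons.

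Sox2ot, a long noncoding RNA whose gene spans Sox2 on the same strand without sharing exon bases, rose where Sox2 did not pass. It was at 1.69 to 2.08 CPM with DMSO and 5.34 to 7.61 CPM with 4OHT in the Ythdc1 set (log2 fold change 1.75, SE 0.164, edgeR adjusted p = 3.68e-07). It rose by 1.53 in the Dux set (edgeR adjusted p = 6.67e-06) and was at 0.18 in the Mettl3 set (adjusted p = 0.599). Nanog-ps1, a pseudogene copy of Nanog, held 2 to 48 counts per library against at least 2866 for Nanog, and the Pou5f1-like pseudogenes Gm5712 and Gm18927 at most 11 and 2 counts.

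Of the annotated neighbours within 100 kb with a mean of at least 1 CPM, Nanog had 5, Pou5f1 8 and Sox2 only Sox2ot. In the Ythdc1 set, where 21.4% of all entries fell, 2 of the 5 Nanog neighbours and 3 of the 8 Pou5f1 neighbours fell. Slc2a3, a glucose transporter gene 13.2 kb to the right, went from 1294 ± 245 to 490 ± 51.3 CPM (-1.37, edgeR adjusted p = 8.58e-08). Dppa3, a germline and early embryo gene 77.2 kb to the left, went from 4.86 ± 0.93 to 2.02 ± 0.871 CPM (-1.25, adjusted p = 0.000533). Gdf3, a TGF-beta family ligand gene 97.4 kb to the left, rose by 0.34 (edgeR adjusted p = 0.000262). In the Mettl3 set, where Nanog rose, Slc2a3 fell by 1.05 (adjusted p = 2.05e-05) and Dppa3 fell by 0.80 (adjusted p = 0.00975). Around Pou5f1 the class I histocompatibility genes H2-Q10 (-1.77, edgeR adjusted p = 0.000368) and H2-Q7 (-1.27, adjusted p = 3.46e-05) and Cchcr1 (-0.32, adjusted p = 0.015) fell in the Ythdc1 set. Cdsn, which encodes the skin protein corneodesmosin, rose (1.08, adjusted p = 0.00685), and the nearest protein-coding neighbour, Tcf19, did not pass (-0.05, adjusted p = 0.761). H2-Q genes are near-identical copies, so their counts are uncertain.

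The entries most like each member were found by the root-mean-square (RMS) difference in log2 CPM over 22 libraries, centred within each set, among 10173 entries. For Nanog they were the membrane skeleton gene Add3 (RMS 0.18), the fatty acid activating enzyme gene Acsl1 (0.194), Spp1 (0.196), the DNA repair gene Brca1 (0.197) and the actin regulator gene Fhod3 (0.198), against a spread of 0.552 for Nanog itself. Add3 fell from 49.6 ± 1.53 to 20.3 ± 1.5 CPM in the Ythdc1 set (-1.25, edgeR adjusted p = 2.37e-09), and the other 4 fell by 1.60 to 1.04 in log2. These entries were picked for likeness to Nanog in the same libraries, so their falls are no separate evidence. For Pou5f1 they were Gm19553 (RMS 0.0514), the aminopeptidase gene Lap3 (0.107), the nucleolar methyltransferase gene Nop2 (0.111), the proteasome subunit gene Psmb5 (0.113) and the splicing factor gene Sart3 (0.113), against 0.251 for Pou5f1 itself. For Sox2 they included the acetyltransferase gene Kat2b (0.0949), the transcription factor gene Sp1 (0.0998), Gigyf2 (0.102) and the zinc finger gene Zfp866 (0.103). Sox2 itself spread by 0.128 only, so any entry that moves little is near it. The other 2 members were not among the 5 nearest of any: of 10173 entries, Sox2 ranked 4595 and Pou5f1 2996 in likeness to Nanog. Pou5f1 was at RMS 0.487 from Nanog with a Pearson correlation of 0.47, and Sox2 at 0.539 with 0.22. The correlation of Pou5f1 with Sox2 was 0.08. RMS also counts differences in the size of a change, which a correlation does not. The libraries share their depth scaling and set means, and treatment groups weigh on every value.

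12 genes known as targets of the trio were counted in each set (lists were chosen with earlier results of these data known). In the Ythdc1 set 6 fell and 3 rose, with a median log2 fold change of -0.22 against 0.02 over all entries, where 21.4% of entries fell and 23.7% rose. Lefty1, an inhibitor of Nodal signalling, fell from 92.6 ± 11.5 to 21.4 ± 3.52 CPM (-2.07, edgeR adjusted p = 1.24e-09). Tcl1, an activator of the kinase AKT, fell from 15.5 ± 1.77 to 5.41 ± 1.13 CPM (-1.48, adjusted p = 4.25e-07). Spp1, which encodes the secreted protein osteopontin, fell from 32.4 ± 2.1 to 14.1 ± 1.94 CPM (-1.16, adjusted p = 1.08e-07). In the Dux set 5 of 12 fell and 2 rose (median -0.21 against 0.05), with Tcl1 at -1.13 and Spp1 at -0.85 (edgeR adjusted p = 5.91e-06 and 3.14e-05) and Lefty1 at 0.01 (adjusted p = 0.977). Of all entries there 16.2% fell and 20.2% rose. Of the 12, 4 rose and 4 fell in the Mettl3 set (16.4% and 14.9% of all entries). Lefty1 (1.26), Spp1 (0.68) and Tcl1 (0.38) rose there with edgeR adjusted p = 2.82e-05, 0.00129 and 0.044.

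Of 19 protein partners of the trio, chromatin factors and repressors for the most part, 13 fell and 2 rose in the Ythdc1 set (median -0.28 against 0.02). In that set 21.4% of all entries fell and 23.7% rose. Parp1, the poly-ADP-ribose polymerase, fell from 404 ± 18.2 to 217 ± 16.3 CPM (-0.86, edgeR adjusted p = 1.88e-08). Wdr5, a core subunit of H3K4 methyltransferases, fell from 151 ± 7.21 to 90.5 ± 7.2 CPM (-0.70, adjusted p = 2.29e-07), and Rest, a repressor of neuronal genes, from 331 ± 17.1 to 206 ± 13.6 CPM (-0.64, adjusted p = 2.59e-07). Of the same 19, 12 fell and 1 rose in the Dux set (median -0.30 against 0.05), with Parp1 at -0.76, Rest at -0.57 and Wdr5 at -0.54 (edgeR adjusted p = 4.33e-06, 0.000142 and 0.000196). The shares of all entries there were 16.2% lower and 20.2% higher. The Mettl3 set was mixed, with 7 lower and 5 higher of 19: Rest rose (0.57, edgeR adjusted p = 0.000398), Wdr5 rose (0.25, adjusted p = 0.0391) and Parp1 fell (-0.28, adjusted p = 0.0131). There 14.9% of entries fell and 16.4% rose.

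LIF in the medium acts through its receptor and STAT3 to sustain the network. Of 11 genes of this pathway 5 rose and 3 fell in the Ythdc1 set (median 0.02), where 23.7% of all entries rose and 21.4% fell. Il6st, the signalling receptor subunit gp130, fell from 133 ± 6.95 to 83.3 ± 4.88 CPM (-0.64, edgeR adjusted p = 5.29e-07), while the transcription factor genes Gbx2 (10.7 ± 5.72 to 53 ± 4.91 CPM, 2.35, adjusted p = 4.7e-07) and Tbx3 (0.64, adjusted p = 2.99e-05) rose. The same 3 passed in the same directions in the Dux set, with Il6st at -0.39, Gbx2 at 1.66 and Tbx3 at 0.62 (edgeR adjusted p = 0.000907, 0.000318 and 0.0138), where 5 of 11 rose and 1 fell (20.2% and 16.2% of all entries). Of the 11, 6 rose and 3 fell in the Mettl3 set (16.4% and 14.9% of all entries), and there Gbx2 fell (-1.48, adjusted p = 0.00192), Il6st rose (0.31, adjusted p = 0.0373) and Tbx3 rose (1.51, adjusted p = 5.1e-05).

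Of 7 genes known to repress members of the trio, 2 rose and 2 fell in the Ythdc1 set, near the 23.7% and 21.4% of all entries. Tcf7l1, a Wnt-pathway factor known to repress Nanog, fell from 56.4 ± 7.5 to 42.5 ± 3.27 CPM (-0.37, edgeR adjusted p = 0.00201), and in the Dux set it fell as well (-0.62, adjusted p = 0.000655). Gata6, the primitive endoderm factor that opposes Nanog in the inner cell mass, rose from 1.94 ± 0.461 to 3.62 ± 1.26 CPM (0.94, edgeR adjusted p = 0.0076) and rose in the Dux set by 1.15 (adjusted p = 0.00143). Nr2f2, an orphan nuclear receptor, fell from 1.89 ± 1.01 to 0.911 ± 0.0684 CPM (-1.01, adjusted p = 0.0414) and rose in the Mettl3 set (3.98, adjusted p = 0.000342). Of 26 tested POU and SOX relatives of Pou5f1 and Sox2, 7 rose and 6 fell in the Ythdc1 set, near the 23.7% and 21.4% of all entries. Pou6f1 fell from 11.9 ± 1.3 to 4.27 ± 0.852 CPM (-1.44, edgeR adjusted p = 7.54e-07). Sox7 (1.50, adjusted p = 0.000144) and Pou5f2 (1.27, adjusted p = 0.00237) rose, both from levels under 2 CPM with DMSO. For the Dux set the counts were 5 higher and 5 lower of 29 (20.2% and 16.2% of all entries), and in the Mettl3 set 5 rose and 3 fell of 25 (16.4% and 14.9%).

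**Figure D4:**
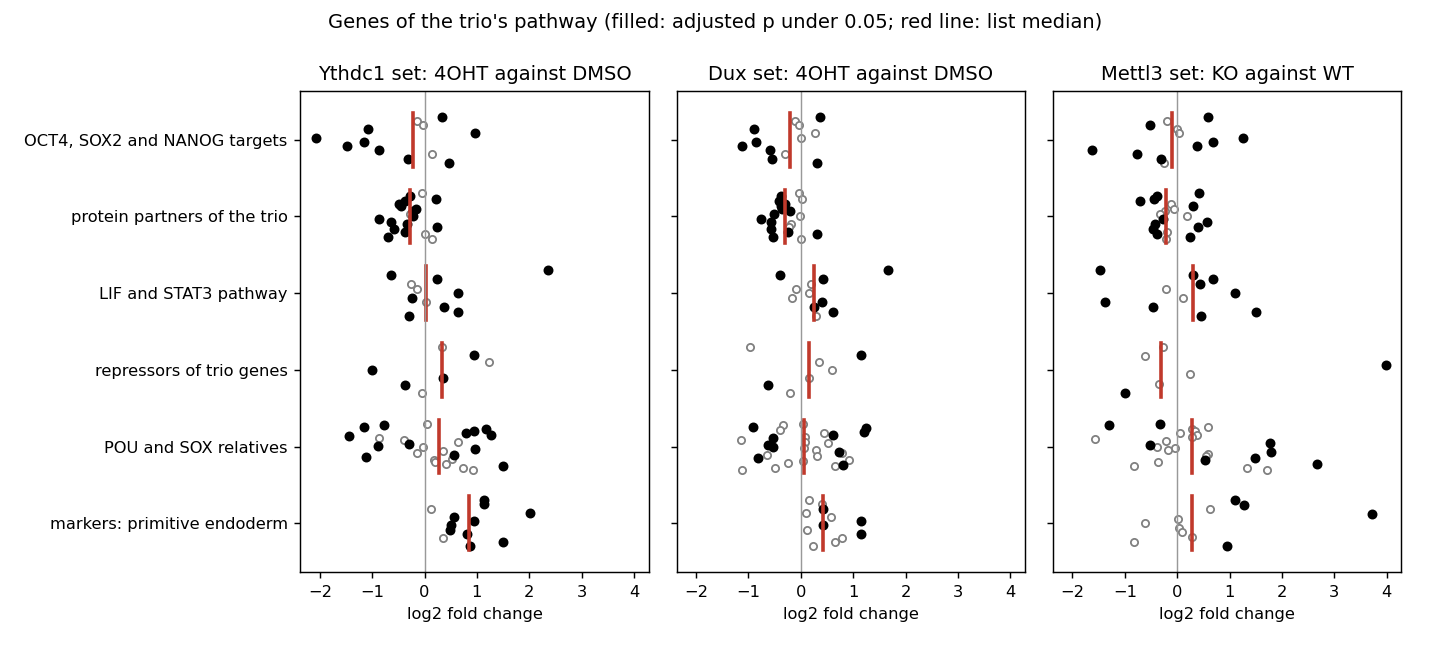
edgeR log2 fold changes (horizontal axes) of the genes of 6 lists in the Ythdc1, Dux and Mettl3 sets. Each point is a gene, filled where its adjusted p is under 0.05, and red lines are list medians. Protein partners of the trio have a median of -0.28 in the Ythdc1 set and -0.30 in the Dux set, and primitive endoderm markers one of 0.84 in the Ythdc1 set.

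Markers of other cell types moved beside these results. In the Ythdc1 set, where Nanog fell, 10 of 12 primitive endoderm markers rose (median 0.84), where 23.7% of all entries rose, among them the basement membrane gene Col4a1 (98.4 ± 13.2 to 211 ± 51.6 CPM), Sox7 and Foxa2 (0.124 ± 0.0916 to 0.494 ± 0.142 CPM). Their sum was 418 to 539 CPM with DMSO and 690 to 1028 CPM with 4OHT, with none at 0. In the Dux set 4 of 12 rose, against 20.2% of all entries, with sums of 323 to 503 CPM with DMSO and 458 to 536 CPM with 4OHT. In the Mettl3 set, where Nanog rose, 4 of 11 tested markers rose, against 16.4% of all entries, with sums of 317 to 327 CPM in WT and 465 to 573 CPM in KO. Their part in the Nanog result was not tested. Of the 8 ESC markers 4 fell and 1 rose in the Ythdc1 set, where 21.4% of all entries fell and 23.7% rose (sums of 1517 to 1771 CPM with DMSO and 1125 to 1361 CPM with 4OHT), where Tdgf1 (-0.87) and Dppa5a (-0.74) fell and Dppa4 rose (0.33) with edgeR adjusted p = 5.78e-06, 1.68e-07 and 0.00172. Of the 8, 3 fell and 1 rose in the Dux set (16.2% and 20.2% of all entries), and 4 fell and 3 rose in the Mettl3 set (14.9% and 16.4%), with sums of 1301 to 1327 CPM in WT and 944 to 947 CPM in KO. Most of the 8, Tdgf1 and Dppa4 among them, are also in the lists of targets or of the LIF pathway. Their counts are thus not separate from those given above.

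For the remaining lists the counts in the Ythdc1 set were 2 higher and 1 lower of 8 trophectoderm markers, 2 and 2 of 5 primed epiblast markers, 1 and 1 of 6 neural markers, 1 and 1 of 5 fibroblast markers and 11 and 0 of 11 tested two-cell markers. Of all entries in that set 23.7% rose and 21.4% fell. The Dux set had 1 higher and 3 lower of 8 trophectoderm markers (median -0.68), 1 and 2 of 5 primed epiblast markers, 1 and 2 of 6 neural markers, 0 and 1 of 5 fibroblast markers and 13 and 0 of 13 two-cell markers (median 2.91). Of all entries in the Dux set 20.2% rose and 16.2% fell. Its two-cell calls pool the genotypes. The two-cell sums were 11.2 to 14.6 CPM with DMSO and 92.3 to 108 CPM with 4OHT in Dux-Het cells. With no Dux label they were 12.8 and 76.7 CPM. In Dux-KO cells they were 1.37 to 1.41 CPM with DMSO and 1.5 to 1.85 CPM with 4OHT, with 10 and 9 of 13 markers at 0. Beside the Nanog rise in the Mettl3 set, 11 of 11 tested two-cell markers rose (median 6.03), with sums of 3.1 to 3.11 CPM in WT and 159 to 177 CPM in KO. The other counts there were 2 higher and 0 lower of 7 tested trophectoderm markers, 0 and 3 of 5 primed epiblast markers, 0 and 2 of 5 tested neural markers and 0 and 2 of 5 fibroblast markers. Of all entries in the Mettl3 set 16.4% rose and 14.9% fell. Primed epiblast genes included Pou3f1, a POU relative of Pou5f1, which rose from 8.92 ± 1.09 to 19.7 ± 2.52 CPM (1.18, edgeR adjusted p = 5.93e-07) and rose in the Dux set as well (1.24, adjusted p = 0.00264), and Fgf5, which fell (-1.65, adjusted p = 0.00992). The fibroblast markers summed to 38.2 to 67.4 CPM with DMSO and 92.3 to 166 CPM with 4OHT in the Ythdc1 set. Most of that sum was Acta2, a smooth muscle actin gene, which rose from 36.9 ± 13.5 to 109 ± 30.9 CPM (1.60, edgeR adjusted p = 1.2e-05), while Thy1 fell (-1.34, adjusted p = 0.000561) and Col1a2 (-0.83) and Col1a1 (0.01), both named after their values were seen, did not pass. Their part in the trio's values was not tested.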

How the data were processed

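RNA-seq of ribosome-depleted total RNA was deposited as a table of raw counts per gene and repeat family, made by the authors, and as a table of the same counts divided by 1 factor per library, a signal that the authors deposited (deviation from 1 factor at most 5.44e-15 over 34971 complete lines, where the copy used ends). bcl2fastq, RSEM, STAR 2.7, Bowtie2 and mm10 are named in the submitters' processing notes, and no source used here names the counting tool. Groups came from the titles. Libraries of 1 comparison were fitted with edgeR 4.0.16 (R 4.3.3, TMM scaling, low counts filtered by filterByExpr, quasi-likelihood test, Benjamini-Hochberg adjustment over all entries, threshold 0.05). Levels are CPM, also per kb of exon (GENCODE vM21), and pattern distances used log2 CPM with a prior count of 0.5. Count ratios were tested with two-sided exact permutation tests (scipy 1.17.1). Scripts were tested on simulated data. Intervals are 95%, and those of single libraries cover counting error only, since reads carry no molecular identifiers.

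Same-numbered libraries of the Ythdc1 set deviated together (correlations 0.316, 0.106, 0.354 and 0.315 over 10173 entries), a pairing taken from the data, so blocked values are given where they change a call. Alternatives were DESeq2 1.42.0, the factors of the normalized table, gene entries alone, no filter, a replicate block, each library left out, and 1 fit of 22 libraries. Besides the trio, genes named are at most 3 per list with the largest changes past the threshold in the Ythdc1 set, at most 4 neighbours on each side within 100 kb with a mean of at least 1 CPM, the 5 entries of nearest pattern with a mean of at least 10 CPM, and the targeted genes. The members and lists were chosen with earlier results of these data known. One entry near Sox2 in pattern is not reported here.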

Additional observations from a re-analysis of the deposited data

Results flagged for a closer look

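The Nanog to Pou5f1 log2 count ratio of replicate 1 of the Ythdc1 set's DMSO group was 0.16, far from the 0.55, 0.62 and 0.56 of replicates 2 to 4. Its gap to the nearest of them was 0.849 of the whole range, above the 95% critical value of Dixon's test for 4 libraries. Of 12 such groups tested, chance flags about 1 in 20. This library held the highest Pou5f1 level (238 CPM) and the lowest Nanog level (266 CPM) of its group.

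The 4OHT effect on Nanog differed between sets. The effect in the Ythdc1 set minus that in the Dux set was -0.74 (edgeR adjusted p = 0.00462), with Nanog lower in each 4OHT library than in each DMSO library of the same genotype in both sets. The effect in the Ythdc1 set minus the Mettl3 effect was -1.86 (edgeR adjusted p = 8.62e-08), with Nanog lower in 4 of 4 libraries of the first and higher in 2 of 2 of the second. Ranges that do not overlap were common: 41.9% of entries in the Ythdc1 set, 52.8% in Dux-Het cells, 59.8% in Dux-KO cells and 66.3% in the Mettl3 set.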

How the results depend on the processing

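With 1 library left out, 325 of the trio's results kept direction and side of the threshold, 20 changed sign, 7 came to pass and 8 no longer passed. The ranges of log2 values were, in the Ythdc1 set, -0.22 to -0.09 (Pou5f1) and -0.01 to 0.09 (Sox2), in the Mettl3 set 0.03 to 0.19 (Pou5f1), -0.39 to -0.06 (Sox2) and 0.36 to 0.52 (Nanog), in Dux-Het cells -0.76 to -0.42, -0.22 to 0.04 and -0.71 to -0.59, and in Dux-KO cells -0.99 to -0.23, -0.26 to 0.01 and -0.95 to -0.64, in the same order. For Dux-KO against Dux-Het they were -0.49 to 0.30, -0.18 to 0.08 and -0.21 to 0.07 under DMSO, and -0.25 to 0.08 (Pou5f1) and -0.12 to 0.01 (Sox2) under 4OHT. The difference of effects ran over -0.41 to 0.38, -0.13 to 0.13 and -0.26 to 0.02. Ythdc1 minus Mettl3 ran over 0.11 to 0.43 for Sox2, and the Nanog to Pou5f1 ratio in the Dux set over -0.33 to 0.02.

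Pou5f1 also came to pass by edgeR with no filter in the Ythdc1 set (-0.18, adjusted p = 0.0284), in Dux-Het cells (-0.56, adjusted p = 0.0086) and Dux-KO cells (-0.63, adjusted p = 0.00196), and in Ythdc1 minus Dux (0.36). It did so with a replicate block (-0.17, -0.58, -0.58 and 0.38 in the same order), in 1 fit of 22 libraries (-0.58 in Dux-Het, -0.62 in Dux-KO) and by DESeq2 in Dux-KO cells (-0.67). The difference of effects for Pou5f1 turned to 0.004 with a replicate block, and that for Sox2 to -0.03 by DESeq2, -0.02 with the deposited factors, and -0.03 each with gene entries alone and with no filter. The block changed no other call of the trio. In the Mettl3, Dux-Het and Dux-KO groups libraries share only a number (correlations 0.0735, 0.543 and 0.245). Calls over all entries in Dux-Het went from 2738 to 6098 with the block and 4319 with no filter, and in Dux-KO from 2890 to 6801 and 4701. In 1 fit of 22 libraries they were 5095 and 5523, and with 1 library left out as few as 1254 and 423. Ranked by Pearson correlation, 3, 0 and 1 of the 5 nearest entries of Pou5f1, Sox2 and Nanog were shared. Under each of 2 other scalings the levels of groups with at least 2 libraries moved by less than 1 SD. The cause of these changes was not tested. Groups of 2 libraries limit the precision, and the effect of depth was not tested.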
